A study of Mus musculus with 6 samples.

Results

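The 4 genes Pfkfb1, Pfkfb2, Pfkfb3 and Pfkfb4 encode the mammalian isoforms of the bifunctional enzyme 6-phosphofructo-2-kinase/fructose-2,6-bisphosphatase (PFK-2/FBPase-2). They were selected by name as the complete family, and the family was chosen for description because Pfkfb1 and Pfkfb2 had been seen to lie in opposite directions in KO ventricles in the same table. All 4 were among the 24391 gene entries of the table, and all 4 were among the 13032 genes that passed the filter on low values (a mean of at least 10). Because the KO against WT values chose the family, those values are given for the members as a description, without a test. The steps between ages within a genotype and the genes of 5 pathway lists are other measures and were tested. They come from the same libraries as the values that chose the family, so these tests are not independent of that choice.

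Messenger RNA was measured by Illumina sequencing of total RNA from cardiac ventricles of C57BL/6 mice. The 6 groups were Klf15 KO (knockout, KO) and wild type (WT), each at postnatal day 10 (P10), 4 weeks (4w) and 20 weeks (20w), with 3 libraries per group and 18 in all. Neither the construction of the KO allele nor the number of animals behind a library is given in the sources used here, so the p-values cover the spread among libraries, which may be partly technical. All values are the authors' normalized counts, that is, read counts divided by 1 size factor per library. Reads on genes numbered 9504538 in the smallest library and 29278351 in the largest.

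PFK-2 makes fructose 2,6-bisphosphate, and FBPase-2, on the same polypeptide, removes it. Fructose 2,6-bisphosphate is the strongest known allosteric activator of phosphofructokinase-1, which commits glucose carbon to glycolysis, and it inhibits fructose-1,6-bisphosphatase, which runs the reverse step. In the heart the Pfkfb2 product is the classical isoform, and insulin signalling through Akt and energy stress through AMP-activated protein kinase are known to raise its kinase activity by phosphorylation. The Pfkfb1 gene is known for the liver and skeletal muscle forms, whose transcripts start at different first exons. Pfkfb3 encodes the inducible form with a high kinase to phosphatase ratio, and Pfkfb4 was first described in testis. Both are known targets of hypoxia signalling in other cells. KLF15 is a zinc finger factor of the Krüppel-like family, whose members bind GC-rich and CACCC elements.

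Pfkfb1 lies on the X chromosome (GRCm38 chrX:150588229-150643878, plus strand), Pfkfb2 on chromosome 1 (chr1:130689182-130729253, minus strand), Pfkfb3 on chromosome 2 (chr2:11471433-11554077, minus strand) and Pfkfb4 on chromosome 9 (chr9:108991778-109032228, plus strand). RefSeq lists 4 starts for Pfkfb1, 3 for Pfkfb2, 2 for Pfkfb3 and 1 for Pfkfb4, and the letters CACCC or GGGTG were searched on both strands in the 250 bases before each. They were present before 2 of the 4 Pfkfb1 starts, 2 of the 3 Pfkfb2 starts, both Pfkfb3 starts and the Pfkfb4 start, against 52.0% of all 32851 windows searched. GGGCGG, a GC box, or its reverse complement CCGCCC was present before 1 of the 4 Pfkfb1 starts, 1 of the 3 Pfkfb2 starts, both Pfkfb3 starts and the Pfkfb4 start, against 32.7% of all windows. The window before one of the Pfkfb2 starts ends in a pyrimidine run and AG, letters like those of a splice acceptor, so that start is uncertain. It holds 2 of the 3 CACCC matches of Pfkfb2, and without it 1 of the 2 Pfkfb2 starts has a match. One window each of Pfkfb1 and Pfkfb2, both free of annotated exons, is printed 5′ to 3′ from RefSeq (GRCm38.p6) so that the 2 genes with opposite differences can be compared. Capitals mark CACCC or its reverse complement GGGTG.
Pfkfb1, chrX:150594178-150594427, plus strand: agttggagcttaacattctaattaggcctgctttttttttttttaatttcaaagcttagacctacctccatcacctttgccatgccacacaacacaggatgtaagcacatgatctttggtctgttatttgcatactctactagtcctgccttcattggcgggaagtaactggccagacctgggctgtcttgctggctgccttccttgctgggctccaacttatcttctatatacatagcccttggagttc
Pfkfb2, chr1:130715822-130716071, minus strand: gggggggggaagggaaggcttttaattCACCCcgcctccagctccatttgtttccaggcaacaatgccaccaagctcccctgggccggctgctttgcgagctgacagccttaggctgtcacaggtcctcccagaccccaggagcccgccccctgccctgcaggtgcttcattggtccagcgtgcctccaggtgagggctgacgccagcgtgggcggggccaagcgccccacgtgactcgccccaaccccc
The Pfkfb1 window held neither CACCC nor GGGCGG. The windows before the other 3 Pfkfb1 starts overlapped exons of Apex2 on the opposite strand, and each held a match, 2 of them 1 CACCC and the other 2 copies of GGGCGG. The Pfkfb2 window held 1 CACCC, 2 copies of GGGCGG and 1 CACGTG (6.02% of all windows). The remaining Pfkfb2 window, also free of exons, held none of these. The printed pair is thus not typical of all starts of either gene, and the matches describe letters in the windows.

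Before the members, some facts of the libraries bear on their values. Klf15 itself stood at 17.4 to 54.8 normalized counts in the 9 KO libraries and at 139.7 to 1282.7 in the 9 WT libraries, lower in KO at every age (limma adjusted p at most 1.3e-07). Rn45s, a ribosomal RNA gene, took 30.8% of the second KO 4w library, and 3 other libraries (the second KO 20w, the second WT 4w and the second WT 20w library) held 1.7% to 2.72%. The P10 libraries held both Xist (4813.8 to 11077.3) and the Y-linked Ddx3y (524.7 to 1197.5), whereas Xist was at most 9.4 in the 4w and 20w libraries and Ddx3y was at least 2397.1. Age and the sex of the animals therefore cannot be told apart in the step between P10 and 4w, which touches X-linked Pfkfb1. Xist was 11077.3, 5228.7 and 9514.1 in the WT and 6611.8, 4813.8 and 5545.4 in the KO P10 libraries. Ddx3y was 713.4, 1111.8 and 633.6 in the WT and 524.7, 1187.4 and 1197.5 in the KO P10 libraries. The mix of sexes may thus differ among the P10 libraries and between the genotypes there. Its part in the P10 difference of Pfkfb1 between KO and WT, and in the change of that difference to 4w, was not tested. In bulk tissue, fewer cells of a type and less RNA per cell cannot be told apart either. All 9 cardiomyocyte markers were present (summed level 753523.3 to 1326976.3 in all libraries). Of these, 9 in KO and 8 in WT were called higher at 4w than at P10, with 58.0% of all genes called in either genotype.

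Markers of other cell types moved with age in both genotypes. The 6 fibroblast markers summed to 57982.2 to 61823.6 in KO and 61179.1 to 70330.0 in WT at P10, 17813.1 to 20509.0 in KO and 21246.5 to 25526.0 in WT at 4w, and 11194.5 to 13363.0 in KO and 12185.8 to 12729.0 in WT at 20w. The 7 endothelial markers summed to 18727.0 to 20384.7 in KO and 18735.4 to 18930.0 in WT at P10, against 9579.5 to 12555.7 at the later ages in both. Between P10 and 4w 5 of the 6 fibroblast and 6 of the 7 endothelial markers were called lower, and all 9 macrophage markers higher, in either genotype. Over all genes 58.0% were called at that step in KO and 58.0% in WT. Between KO and WT at 4w 2 of the 6 fibroblast markers passed, Dcn (-0.35, limma adjusted p = 0.0082) and Dpt (-0.34, adjusted p = 0.03), both lower. Of the 9 cardiomyocyte markers 1 passed there, Ryr2, which was higher (0.41, limma adjusted p = 0.029). At 20w 1 of the 9 cardiomyocyte markers, Mybpc3, was higher (0.53, limma adjusted p = 0.004), and no fibroblast marker passed. Over all genes 5.65% were called at 4w and 7.49% at 20w. The list medians were -0.18 for fibroblast and 0.03 for cardiomyocyte markers at 4w, and 0.21 and 0.01 at 20w. The part of the age shifts and of these differences in the values of the members was not tested.

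Pfkfb1 was low in KO ventricles at every age, while in WT ventricles it rose with age. At P10 it had 7.94, 7.82 and 14.5 normalized counts in KO libraries and 21.6, 14.1 and 23.5 in WT libraries. The P10 groups overlapped, since the highest KO library exceeded the lowest WT library. At 4w the KO libraries held 8.43, 14.2 and 8.39 and the WT libraries 55.5, 72.7 and 77.7. At 20w the KO libraries held 28.1, 14.6 and 14.2 and the WT libraries 368.1, 228.6 and 294.8. The groups were apart at 4w and at 20w, and even the highest KO value at 20w was below the lowest WT value at 4w.

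The log2 difference of Pfkfb1 between KO and WT was -0.93 at P10, -2.64 at 4w and -3.94 at 20w (model SE 0.3 at each age). The mean in WT was 1.96, 6.64 and 15.7 times that in KO at P10, 4w and 20w. Ranked from the lowest difference among the 13032 genes, Pfkfb1 stood 107th at P10, 12th at 4w and 9th at 20w. The difference moved by -1.72 ± 0.43 (SE, log2 scale) between P10 and 4w and by a further -1.3 ± 0.43 between 4w and 20w, which was not tested because it is built from the contrast that chose the gene. The KO values rest on few reads, 7 to 33 per library, against 17 to 235 in WT libraries.

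**Figure D1:**
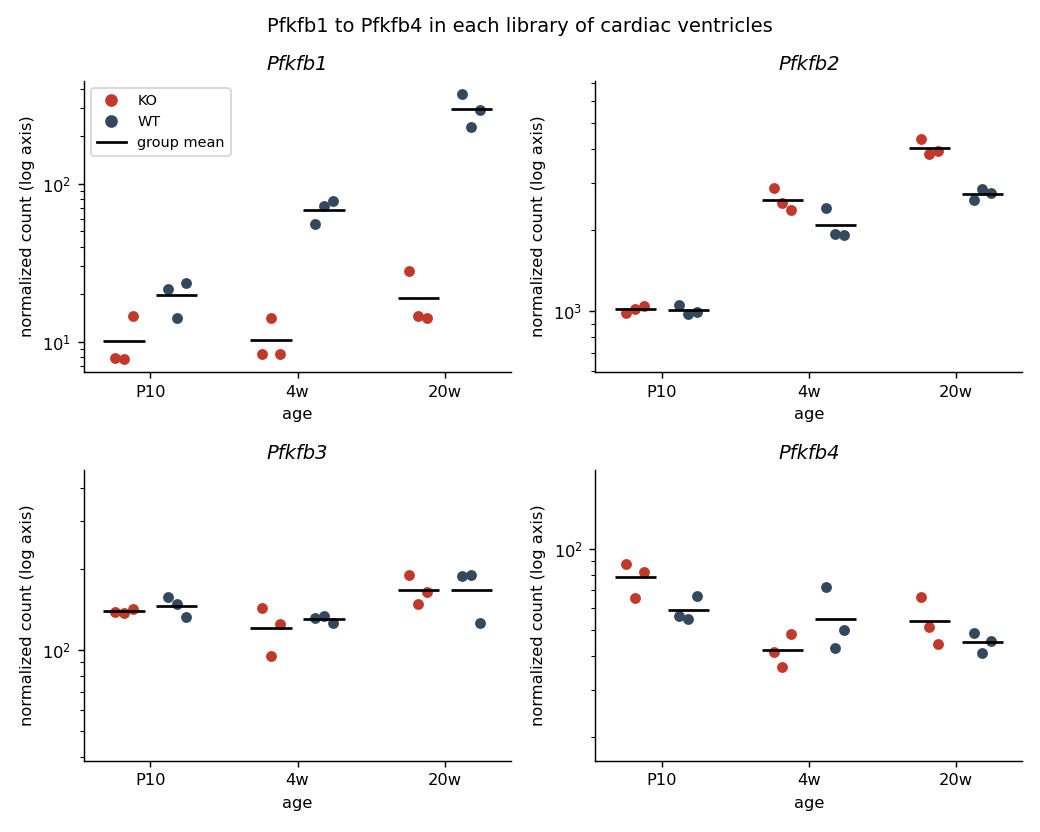
Normalized counts (log axis) of Pfkfb1 to Pfkfb4 at P10, 4w and 20w, KO left of WT at each age. Each point is 1 library and each black line the mean of 3. Pfkfb1 in KO stayed between 7.82 and 28.1 at all ages while WT reached 228.6 to 368.1 at 20w, and Pfkfb2 in KO reached 3831.8 to 4362.6 at 20w against 2576.6 to 2847.1 in WT.

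Within WT ventricles Pfkfb1 rose at both steps. It was higher at 4w than at P10 by 1.76 ± 0.3 (SE, log2 scale; limma adjusted p = 5.6e-05) and higher at 20w than at 4w by 2.09 (adjusted p = 6.6e-05). Within KO ventricles neither step passed, with 0.05 between P10 and 4w (limma adjusted p = 0.9) and 0.79 between 4w and 20w (adjusted p = 0.075). The second of these passed in DESeq2 (1.07, adjusted p = 0.032) and without the second KO 4w library (1.02, limma adjusted p = 0.043).

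Part of Pfkfb1 shares sequence space with another gene. Exons at its 5′ end overlap exons of Apex2, an endonuclease gene of base excision repair, on the opposite strand, and the strand setting of the authors' counting is not given in the sources used here. Apex2 ranged over 40.9 to 48.1 in KO and 51.1 to 60.9 in WT libraries at P10, 36.5 to 47.7 in KO and 74.2 to 83.2 in WT libraries at 4w, and 31.3 to 49.1 in KO and 103.4 to 131.6 in WT libraries at 20w. It was thus lower in KO at 4w (log2 difference -0.87 ± 0.17 SE, limma adjusted p = 0.0042) and at 20w (-1.54, adjusted p = 5e-06), and rose in WT between P10 and 4w (0.5, adjusted p = 0.017) and between 4w and 20w (0.55, adjusted p = 0.023). Reads in the shared stretch cannot be assigned to one gene or the other here, and how many there were was not tested.

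Markers of the tissues in which the Pfkfb1 products are best known were low, as Pfkfb1 itself was in most groups. Of 11 hepatocyte markers 2 passed the filter on low values, and Fgb and Fgg were at 0 in every library. The list summed to 29.5 to 34.2 in KO and 18.7 to 24.4 in WT libraries at P10, 87.2 to 100.3 in KO and 111.0 to 139.2 in WT libraries at 4w, and 61.3 to 90.9 in KO and 67.4 to 89.3 in WT libraries at 20w. In KO the sum was above Pfkfb1 at every age. In WT the ranges of the sum and of Pfkfb1 overlapped at P10, and the sum was above Pfkfb1 at 4w and below it at 20w. Cyp2e1, a cytochrome P450 gene and one of the 2 tested, was lower in KO at 4w, as Pfkfb1 was (13.6 ± 2.64 in KO, 43.5 ± 5.58 in WT, SD, n = 3; -1.62 ± 0.45 SE, limma adjusted p = 0.04). The other tested hepatocyte marker did not pass at 4w. Neither of the 2 passed between KO and WT at P10 or 20w (median log2 differences 0.31 and -0.29). Of 10 skeletal muscle markers 2 passed, and the list summed to 39.2 to 58.8 in KO libraries. In WT libraries it summed to 28.4 to 64.1 at P10 and 20w and to 45.5 to 775.6 at 4w, where 1 library stood high. Myod1 was at 0 in all libraries of 5 of the 6 groups, the exception being WT 20w. The part of these tissues in the Pfkfb1 values was not tested.

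Pfkfb2, the heart isoform gene, had the highest level per kb of the 4 members in every group, and its mean in KO was 1.49 times that in WT at 20w. At P10 it had 984.2, 1017.7 and 1051.0 normalized counts in KO libraries and 1055.5, 974.9 and 993.8 in WT libraries, with the groups overlapping. At 4w it had 2872.1, 2523.9 and 2367.0 in KO libraries and 2426.0, 1927.7 and 1915.9 in WT libraries, where 1 KO library lay below the highest WT library. At 20w it had 4362.6, 3831.8 and 3947.2 in KO libraries and 2576.6, 2847.1 and 2739.9 in WT libraries, and every KO library was above every WT library.

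The log2 difference of Pfkfb2 between KO and WT was 0.01 at P10, 0.31 at 4w and 0.57 at 20w (SE 0.09 at each age). After scaling each library to the same total, which shifts the median of all genes at 4w by -0.241, the 4w value was 0.07, that is, as far above the median as under the deposited scaling. The difference moved by 0.3 ± 0.13 (SE, log2 scale) between P10 and 4w and by 0.26 ± 0.13 between 4w and 20w, not tested for the reason given for Pfkfb1.

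Pfkfb2 rose with age in both genotypes. In KO it was higher at 4w than at P10 by 1.34 ± 0.09 (SE, log2 scale; limma adjusted p = 3.3e-10) and higher at 20w than at 4w by 0.65 (adjusted p = 4e-05). In WT it was higher by 1.04 at the first step (limma adjusted p = 8.8e-09) and by 0.39 at the second (adjusted p = 0.0036). The last of these did not pass with libraries scaled to a common total (0.25, limma adjusted p = 0.27) or without the 4 libraries above 1% Rn45s (0.3, adjusted p = 0.097). The common total shifted the median of all genes at that step by -0.14. Exons of Pfkfb2 overlap those of Gm29427 on the same strand, which has no value here, and of Yod1, a deubiquitinase gene on the opposite strand. Yod1 did not pass the KO against WT test at any age (0.15 at 4w, limma adjusted p = 0.49, and -0.23 at 20w, adjusted p = 0.19). In KO it rose from P10 to 4w (0.4, limma adjusted p = 0.0021) and fell from 4w to 20w (-0.41, adjusted p = 0.0065). In WT neither step passed. Reads in the stretches that Pfkfb2 shares cannot be assigned to one gene here, and how many there were was not tested.

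**Figure D2:**
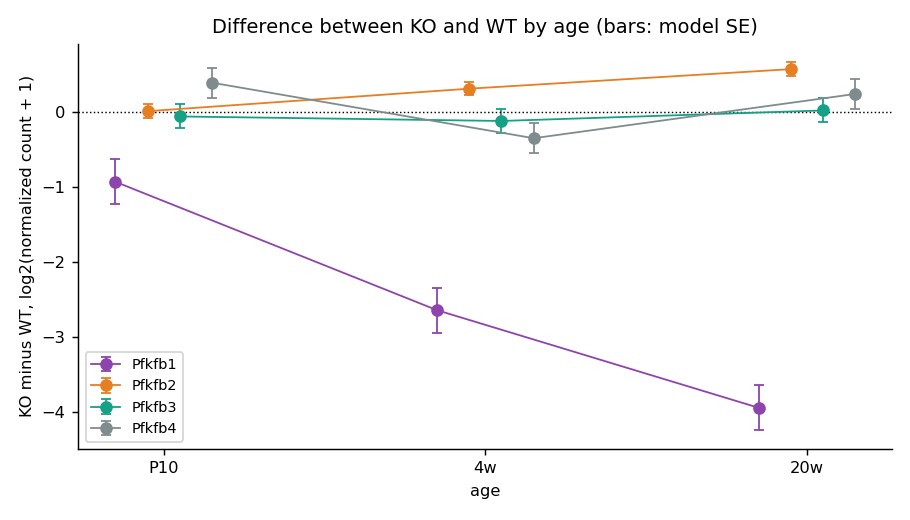
Difference between KO and WT on the log2(normalized count + 1) scale at each age for the 4 members, with the model's SE as bars. Pfkfb1 lay at -0.93, -2.64 and -3.94 at P10, 4w and 20w, Pfkfb2 at 0.01, 0.31 and 0.57, and Pfkfb3 and Pfkfb4 between -0.35 and 0.39.

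Pfkfb3, the inducible isoform gene, stood at overlapping levels in KO and WT ventricles. At P10 it had 138.6, 137.7 and 141.4 normalized counts in KO libraries and 157.5, 147.7 and 132.2 in WT libraries. At 4w it had 143.3, 95.4 and 124.8 in KO libraries and 131.0, 133.4 and 126.4 in WT libraries. At 20w it had 189.8, 148.4 and 163.8 in KO libraries and 188.0, 189.1 and 125.5 in WT libraries. The groups overlapped at all 3 ages, with log2 differences of -0.06, -0.12 and 0.02 (SE 0.16 each) at P10, 4w and 20w. The lowest value, 95.4, came from the KO 4w library with the high Rn45s share and rests on 47 reads.

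Between ages, Pfkfb3 rose in KO from 4w to 20w by 0.48 ± 0.16 (SE, log2 scale; limma adjusted p = 0.039), with no overlap of those groups. That call was lost in 8 alternatives, among them without the second KO 4w library (0.31, limma adjusted p = 0.21), without the first KO 20w library (adjusted p = 0.15), without the third KO 20w library (adjusted p = 0.073) and without the third KO 4w library (adjusted p = 0.064). In WT the same step was 0.34 (limma adjusted p = 0.13), and it passed without the third WT 20w library (0.53, adjusted p = 0.018). The steps from P10 to 4w were -0.22 in KO (limma adjusted p = 0.24) and -0.16 in WT (adjusted p = 0.41). Scaled to a common total, where the median of all genes was shifted by -0.489, the KO step was -0.71 and passed (limma adjusted p = 0.0048).

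Pfkfb4, the isoform gene first described in testis, averaged higher in KO than in WT at P10 and 20w and lower at 4w, within overlapping groups. At P10 it had 87.8, 65.6 and 81.8 normalized counts in KO libraries and 56.2, 54.8 and 66.5 in WT libraries. At 4w it had 41.3, 36.5 and 48.3 in KO libraries and 72.1, 42.9 and 49.9 in WT libraries. At 20w it had 66.4, 51.2 and 44.2 in KO libraries and 48.6, 41.1 and 45.5 in WT libraries. The log2 differences were 0.39, -0.35 and 0.24 (SE 0.2 each) at P10, 4w and 20w, and the KO and WT ranges overlapped at each age. The difference moved by -0.75 ± 0.28 (SE, log2 scale) between P10 and 4w and by 0.59 ± 0.28 between 4w and 20w, which was not tested.

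In KO ventricles Pfkfb4 was lower at 4w than at P10 (log2 difference -0.88 ± 0.2 SE, limma adjusted p = 0.00087), and the step passed in all 29 alternatives run. In WT the same step was -0.13 (limma adjusted p = 0.59). The steps from 4w to 20w were 0.34 in KO (limma adjusted p = 0.25) and -0.25 in WT (adjusted p = 0.38).

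Counted over the family, 2 of the 4 members passed at each age step within each genotype. Between P10 and 4w these were Pfkfb2, higher, and Pfkfb4, lower, in KO (58.0% of all genes called) and Pfkfb1 and Pfkfb2, both higher, in WT (58.0% of all genes called). Between 4w and 20w they were Pfkfb2 and Pfkfb3, both higher, in KO (19.3% of all genes called) and Pfkfb1 and Pfkfb2, both higher, in WT (25.1% of all genes called). Counts of 2 in 4 are close to the background at the earlier step. Whether a member's age step differed between the genotypes is the same quantity as the change of the KO against WT difference given above.

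Levels can be compared between the genes once divided by transcript length. Using the mean length of the protein-coding transcripts (1.508 kb for Pfkfb1, 2.472 kb for Pfkfb2, 2.915 kb for Pfkfb3 and 3.402 kb for Pfkfb4), the summed level of the family was 489.2 ± 16.1 normalized counts per kb in KO and 488.3 ± 21.3 in WT at P10 (SD, n = 3 libraries each). At 4w it was 1107.6 ± 108.3 per kb in KO and 951.8 ± 114.8 in WT, and at 20w 1723.1 ± 128.0 in KO and 1368.6 ± 10.5 in WT. The KO and WT ranges overlapped at P10 and 4w and were apart at 20w (1625.7 to 1868.0 in KO, 1360.3 to 1380.3 in WT).

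Pfkfb2 made up most of that sum in every group. Its share was 84.2% ± 0.883 in KO and 83.5% ± 0.268 in WT at P10, 94.5% ± 0.607 in KO and 88.7% ± 1.58 in WT at 4w, and 95.0% ± 0.493 in KO and 80.4% ± 3.66 in WT at 20w (SD, n = 3). The share of Pfkfb1 was 1.36% ± 0.464 in KO and 2.67% ± 0.631 in WT at P10. It was 0.626% ± 0.222 in KO and 4.89% ± 1.31 in WT at 4w, and 0.719% ± 0.241 in KO and 14.4% ± 3.45 in WT at 20w. The level of Pfkfb2 per kb was 94.8 to 169.0 times that of Pfkfb1 in the KO 20w libraries and 4.27 to 7.60 times in the WT 20w libraries. Measured instead against the longest transcript, the Pfkfb1 share at 20w was 1.02% in KO and 19.3% in WT.

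**Figure D3:**
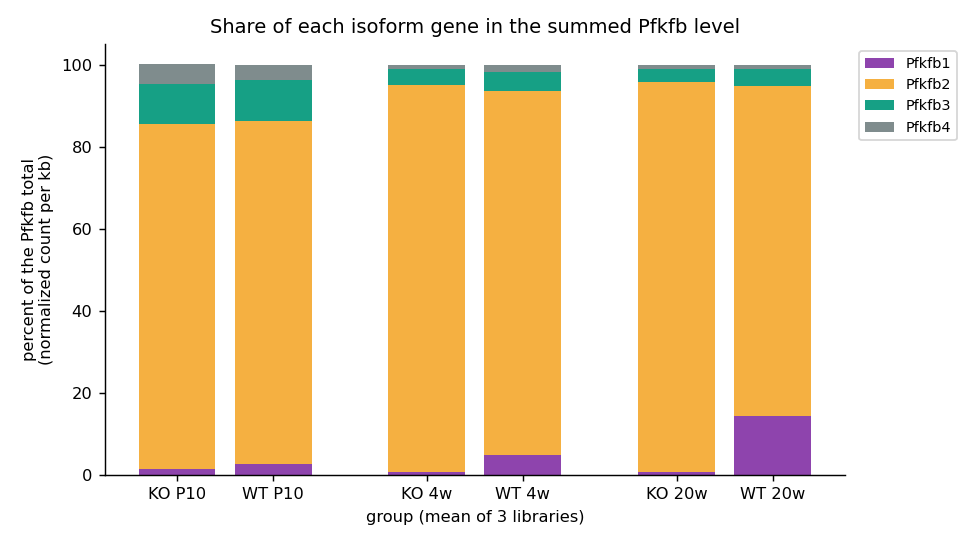
Share of each member in the summed Pfkfb level, from normalized counts per kb, as the mean of 3 libraries per group, KO left of WT at each age. Pfkfb1 takes 0.719% of the KO 20w bar and 14.4% of the WT 20w bar, and Pfkfb2 takes 80.4% to 95.0% of every bar.

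The order of the members per kb therefore differed between groups below the first place. Pfkfb3 was second in all KO groups, at 47.8 ± 0.652 per kb at P10, 41.6 ± 8.29 at 4w and 57.4 ± 7.18 at 20w (SD, n = 3). In KO, Pfkfb4 (23.0, 12.4 and 15.8 per kb at the 3 ages) came next and Pfkfb1 (6.68, 6.86 and 12.6) last, and the libraries of these last places overlapped at 20w. In WT, Pfkfb1 was last at P10 (13.1 ± 3.30 per kb), level with Pfkfb3 at 4w (45.5 ± 7.72 and 44.7 ± 1.22) and second at 20w (197.1 ± 46.3, against 57.5 ± 12.5 for Pfkfb3). The order of Pfkfb1 and Pfkfb3 in WT at 4w depended on the length used. Their shares were 6.78% and 4.96% with the longest transcript, and 3.00% and 5.61% with no length correction.

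The genes around the PFK-2 step were followed in 5 lists with 76 genes, of which 70 were tested. Between KO and WT 5 of the 70 passed at P10, all lower (7.14%, against 2.26% of all genes tested). At 4w 11 passed, 5 higher and 6 lower (15.7%, against 5.65% of all genes tested), and at 20w 10 passed, 2 higher and 8 lower (14.3%, against 7.49% of all genes tested). The higher calls at 4w depended on the scaling. With libraries scaled to a common total 14 passed at 4w, all of them lower. Over all genes 19 were then higher and 598 lower at 4w, against 390 higher and 346 lower under the deposited scaling. At 20w 5 passed with the common total, all lower, so that both higher and lower calls were lost. Over all genes 128 were then higher and 280 lower at 20w, against 418 and 558. That scaling shifted the median of all genes by -0.241 at 4w and by -0.005 at 20w. The median log2 difference of the 70 genes was -0.09, -0.01 and 0.01 at P10, 4w and 20w, and that of all genes tested -0.01, 0.0 and 0.01.

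On the axis that fructose 2,6-bisphosphate controls, Fbp2, the muscle fructose-1,6-bisphosphatase gene, was the called gene. At P10 it had 196.6, 229.8 and 179.7 normalized counts in KO libraries and 226.9, 165.1 and 288.0 in WT libraries, which overlapped (limma adjusted p = 0.86). At 4w it had 124.7, 115.6 and 111.2 in KO libraries and 273.0, 471.8 and 572.9 in WT libraries (log2 difference -1.83 ± 0.21 SE, limma adjusted p = 1.4e-05). At 20w it had 61.3, 67.9 and 49.9 in KO libraries and 520.0, 477.0 and 421.9 in WT libraries (-2.97, limma adjusted p = 9.2e-09). Within KO, Fbp2 fell at both age steps (-0.77, limma adjusted p = 0.0041; -0.97, adjusted p = 0.0032), and within WT it rose from P10 to 4w (0.92, adjusted p = 0.001). The phosphofructokinase-1 subunit genes Pfkm, Pfkl and Pfkp and Tigar, a fructose-2,6-bisphosphatase gene, passed at no age, with Pfkl at -0.32 (limma adjusted p = 0.2) and Tigar at -0.28 (adjusted p = 0.17) at P10. Fbp1, the liver form, held at most 2 reads in any library.

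In the list of glucose transport and glycolysis 3 of 17 tested genes were lower at P10 (17.6%, against 2.26% of all genes), 1 was higher and 1 lower at 4w (11.8%, against 5.65%), and 1 was higher and 2 lower at 20w (17.6%, against 7.49%). Hk2, the insulin-responsive hexokinase of muscle, had 2144.0, 1764.2 and 2112.2 normalized counts in KO P10 libraries and 3229.4, 3383.4 and 3689.0 in WT P10 libraries (log2 difference -0.78 ± 0.08 SE, limma adjusted p = 1.3e-05). Hk2 was again lower in KO at 20w, with a log2 difference of -0.39 (7648.4 ± 409.0 in KO, 10044.8 ± 625.9 in WT, SD, n = 3; limma adjusted p = 0.0051). Hk1, the constitutive hexokinase, was higher in KO at 4w by 0.34 (limma adjusted p = 0.02), and 0.09 with libraries scaled to a common total, in which the median of all genes lay at -0.241. Eno3, the muscle enolase, was lower at P10 (-0.33, limma adjusted p = 0.04), and Pgam2, the muscle phosphoglycerate mutase, was higher at 20w (0.46, adjusted p = 0.0098).

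**Figure D4:**
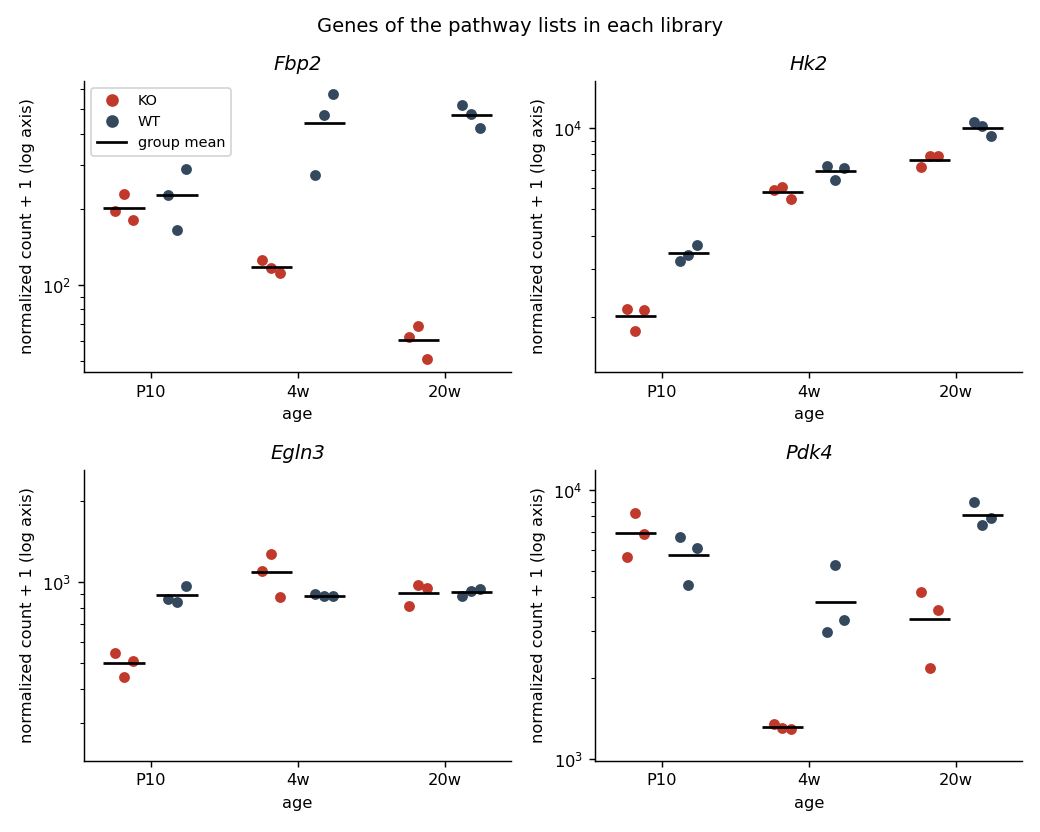
Normalized count + 1 (log axis) of Fbp2, Hk2, Egln3 and Pdk4 in each library at P10, 4w and 20w, KO left of WT, with the mean of 3 libraries as a black line. Fbp2 and Pdk4 in KO lie below every WT library at 4w and 20w, Hk2 at P10, 4w and 20w, and Egln3 at P10.

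Of 19 kinases and phosphatases that act on PFK-2 or upstream of it, none passed at P10, 3 were higher at 4w (15.8%, against 5.65% of all genes) and 1 was higher at 20w (5.26%, against 7.49% of all genes, and so below the background). Those at 4w were the protein kinase A regulatory subunit genes Prkar2a (0.32 ± 0.07 SE, limma adjusted p = 0.0073) and Prkar1a (0.31, adjusted p = 0.034) and the insulin receptor gene Insr (0.29, adjusted p = 0.034). With libraries scaled to a common total these 3 values were 0.08, 0.07 and 0.05 and did not pass. That scaling shifted the median of all genes at 4w by -0.241. At 20w Prkar1a averaged 11138.2 ± 1210.7 in KO and 8271.7 ± 362.3 in WT (SD, n = 3; 0.42, limma adjusted p = 0.0031). Akt1 stood at 0.33 at P10 (limma adjusted p = 0.16).

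Of 14 tested hypoxia-responsive genes 2 were lower at P10 (14.3%, against 2.26% of all genes), 1 was higher and 1 lower at 4w (14.3%, against 5.65%), and 1 was lower at 20w (7.14%, against 7.49%, and so at the background). Egln3, a HIF prolyl hydroxylase, averaged 499.3 ± 50.6 in KO and 891.9 ± 67.0 in WT at P10 (SD, n = 3; log2 difference -0.84 ± 0.11 SE, limma adjusted p = 0.00012), and P4ha1, a collagen prolyl hydroxylase, was lower there too (-0.53, adjusted p = 0.02). Arnt, the partner subunit of the HIF factors, was higher at 4w (0.42, limma adjusted p = 0.00066). With libraries scaled to a common total Arnt stood at 0.18 (limma adjusted p = 0.39), where the median of all genes was shifted by -0.241. Pdk1, a pyruvate dehydrogenase kinase, was lower at 4w (-0.31, limma adjusted p = 0.041), and Hif1a was lower at 20w (-0.29, adjusted p = 0.04).

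Of 15 glucocorticoid-responsive genes none passed at P10, 3 were lower at 4w (20.0%, against 5.65% of all genes) and 4 were lower at 20w (26.7%, against 7.49%), with medians of -0.3 and -0.33 at the later ages. Pdk4, a pyruvate dehydrogenase kinase that restrains glucose oxidation, had 1346.7, 1306.6 and 1299.2 normalized counts in KO 4w libraries and 2968.7, 5275.5 and 3280.9 in WT 4w libraries (-1.5 ± 0.21 SE, limma adjusted p = 0.00016). At 20w it averaged 3313.6 ± 1025.5 in KO and 8087.6 ± 829.9 in WT (SD, n = 3; -1.33, limma adjusted p = 0.0004). Glul, the glutamine synthetase gene, was lower at 4w (-0.7, limma adjusted p = 0.0045), Klf9 at 4w (-0.32, adjusted p = 0.048) and 20w (-0.42, adjusted p = 0.0067), and Tsc22d3 (-0.51, adjusted p = 0.015) and Zbtb16 (-0.65, adjusted p = 0.045) at 20w. Mt2 at P10 stood at -1.24 (limma adjusted p = 0.12) and Cdkn1a at -0.65 (adjusted p = 0.19).

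Among the KO against WT calls of the list genes named here, those of Fbp2 and Pdk4 at 4w and 20w, and Hk2 and Egln3 at P10 passed in every alternative that gave a value, leaving out each library included. The other KO against WT calls of these genes were lost in at least 1 alternative, up to an adjusted p of 0.83 for Insr at 4w. Klf9 at 4w was lost in 15 alternatives, Zbtb16 in 13, Pdk1 in 12 and Eno3 and Hif1a in 11 each, leaving out single libraries among them.

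Genes whose log2 values most resembled those of Pfkfb1 and Pfkfb2 over the 18 libraries were ranked by Pearson correlation among 12323 genes. The libraries share age and genotype, so the values describe shared group patterns. Among the highest for Pfkfb1 were Decr1, the mitochondrial dienoyl-CoA reductase (r = 0.953), Plbd1 (0.952), Pm20d1 (0.944) and Ehhadh, the peroxisomal bifunctional enzyme (0.94). The lowest were Ten1 (-0.946), Plekho1 (-0.908) and Dact3 (-0.895), and Ten1 at 20w averaged 178.6 ± 11.0 in KO and 59.8 ± 16.9 in WT.

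For Pfkfb2 the highest were Trak2, a mitochondrial transport adaptor (r = 0.985), Ivns1abp (0.982), Mapt, the tau gene (0.981), Golga4 (0.979) and Abca2 (0.979), and the lowest Tcaf1 (-0.98), Aldh1b1 (-0.978) and Zcchc5 (-0.978). Ivns1abp averaged 9802.7 ± 136.1 in KO and 9542.1 ± 860.5 in WT at P10, 23626.2 ± 2086.8 in KO and 20811.8 ± 1184.6 in WT at 4w, and 35741.3 ± 4076.0 in KO and 28245.4 ± 527.1 in WT at 20w (SD, n = 3). Between the members themselves the correlations over the 18 libraries were 0.3 for Pfkfb1 with Pfkfb2, 0.23 for Pfkfb2 with Pfkfb3 and -0.55 for Pfkfb2 with Pfkfb4.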

How the data were processed

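Normalized counts of ventricular messenger RNA were deposited for 18 libraries in 6 groups. Per the submitters' processing notes, Bowtie2 2.0, the build mm9 and DESeq2 were used. The use of each, like the counting tool, strandedness and gene models, is not given in the sources used here. Each deposited signal value is a read count divided by 1 size factor per library, and dividing by the step worth 1 read gave whole reads for 100.0% of values (tolerance 0.001 reads).

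Values were analysed as log2(value + 1), which understates changes of low genes. The 13032 genes with a mean of at least 10 were fitted with limma 3.58.1 (R 4.3.3), 6 group means, a trended empirical Bayes spread and two-sided tests, with Benjamini-Hochberg adjustment over all genes and calls under 0.05. The fit was tested on simulated data. Members, lists and tests were chosen with earlier results of these data known. The genes named are the 4 members, Klf15, per list and comparison up to 4 called genes with the smallest adjusted p (otherwise up to 2 with the largest difference, given as values), and, for Pfkfb1 and Pfkfb2, the 5 genes with the highest and the 3 with the lowest (most negative) correlation. Some genes that this rule names are not reported here. Apex2 and Yod1 were added for overlapping exons. Coordinates and lengths are from GRCm38, which is not the build of the counts. Alternatives were other pseudocounts, filters, scalings, edgeR 4.0.16, DESeq2 1.42.0, a replicate block, the 2 groups compared alone, and leaving out libraries.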

Additional observations from a re-analysis of the deposited data

How the results depend on the processing

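Of 575 values recomputed for the member differences, shares and counts of calls, 527 stayed within the replicate spread or the limit set for counts, and no called direction of a single gene was reversed. Many of the 527 were fixed in advance. A member difference cannot change when a library of another group is left out or the filter is changed. The same holds with the replicate block or with only the 2 groups compared. The 527 are therefore no measure of stability. Of the 2 members called from 4w to 20w, 1 was called in KO with no filter, with a common total, with only the 2 groups compared or without the 4 libraries above 1% Rn45s, and 1 in WT with a common total or without those libraries. With a common total 3 members were called from P10 to 4w in KO. Without single libraries the counts from 4w to 20w were 1 to 2 in KO and 2 to 3 in WT. The 5 pathway genes called at P10 became 3 with a common total (3 to 7 without single libraries). The 11 at 4w became 7 with no filter and 2 without the 4 libraries (6 to 12 without single libraries). The 10 at 20w became 5 with a common total and 4 without the 4 libraries (7 to 13 without single libraries). Leaving out the 4 libraries takes 1 from each 4w and 20w group and leaves 2 in each. Fewer replicates and the Rn45s share therefore cannot be told apart there. At 4w the difference of Pfkfb1 was -2.27 with a pseudocount of 5, and with a common total that of Pfkfb2 was 0.07 and that of Pfkfb3 was -0.36, under a shift of all genes by -0.241. That shift was -0.489 from P10 to 4w in KO, -0.252 in WT, and -0.14 from 4w to 20w in WT.

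Shares moved with the transcript length used. With the longest transcript Pfkfb1 held 1.86%, 0.89% and 1.02% in KO at P10, 4w and 20w and 3.68%, 6.78% and 19.3% in WT, and Pfkfb2 80.2%, 93.2% and 93.8% in KO and 79.7%, 85.4% and 74.9% in WT. With no length correction Pfkfb1 held 0.804%, 0.379% and 0.436% in KO and 1.6%, 3.0% and 9.23% in WT, and Pfkfb2 81.7%, 93.7% and 94.4% in KO and, at P10 and 20w, 81.8% and 84.2% in WT.

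Genes called between KO and WT numbered 295 at P10 (109 with a common total, 183 with no filter, 193 without the 4 libraries, 466 with only the 2 groups, 515 in edgeR, 562 in DESeq2), 736 at 4w (705 in edgeR, 212 without the 4 libraries) and 976 at 20w (842 in edgeR, 408 with a common total, 473 without the 4 libraries); without single libraries the ranges were 110 to 355, 373 to 823 and 581 to 1165. From 4w to 20w the 2514 in KO became 1219 with a common total, and the 3273 in WT became 1771 with it and 1750 without the 4 libraries. The cause of these shifts was not tested. Libraries with the same number did not deviate together (correlations -0.34 to 0.17); with the replicate block 2 members passed at each age step, as without it, and 4, 9 and 10 pathway genes passed at P10, 4w and 20w. Depth limits Pfkfb1 in KO, where 7 to 33 reads were found.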

Other observations

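Several glycolytic genes that the heart is known to express strongly stood near 0 in the table and were not tested. Gapdh held at most 38 reads in any library, Pgam1 at most 13, and Eno1 was listed at 0 in all 18 libraries, as were the haemoglobin genes Hbb-b1, Hbb-b2, Hba-a1 and Hba-a2. The sum of any glycolytic family in this table therefore leaves these genes out. Why they are low was not tested.

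More genes of the pathway lists passed between P10 and 4w than between KO and WT, 54 of 70 in KO and 50 of 70 in WT, with 58.0% of all genes called in either genotype. At that step 15 of 17 glycolysis genes passed in KO, all higher, and 14 in WT, 13 higher and 1 lower, with a median log2 change of 0.77 in both genotypes. With libraries scaled to a common total 9 passed in KO, 8 higher and 1 lower, and 11 in WT, 9 higher and 2 lower. Over the 70 genes the higher and lower calls at that step were 44 and 10 in KO and 39 and 11 in WT, and 24 and 23 in KO and 27 and 13 in WT with a common total. Of 15 glucocorticoid-responsive genes 14 passed in KO and 13 in WT at that step. Zbtb16, a glucocorticoid-induced zinc finger gene, averaged 2879.8 ± 480.4 at 4w and 227.6 ± 72.3 at P10 in KO (SD, n = 3; log2 change 3.69, limma adjusted p = 1.3e-11), and 3113.6 ± 985.0 at 4w and 178.5 ± 16.1 at P10 in WT (4.07, adjusted p = 3.1e-12). Pdk4 was lower at 4w than at P10 in both, with log2 changes of -2.37 in KO (limma adjusted p = 1.8e-08) and -0.6 in WT (adjusted p = 0.02).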
